A study of Saccharomyces cerevisiae with 12 samples.

Results

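A set of 8 genes of phosphate uptake, phosphate scavenging and polyphosphate storage, out of the 6600 features in the count table, was followed in budding yeast grown with the antifungal protein PeAfpA. They were taken by systematic name and cover the transporters PHO84 (YML123C) and PHO89 (YBR296C), the phosphatases PHO5 (YBR093C) and PHO8 (YDR481C), the regulator SPL2 (YHR136C), and the polyphosphate polymerase genes VTC1 (YER072W), VTC3 (YPL019C) and VTC4 (YJL012C). PeAfpA is a small cysteine-rich protein secreted by the mould Penicillium expansum. RNA-seq was carried out on Saccharomyces cerevisiae BY4741, a haploid MATa laboratory strain with deletions in HIS3, LEU2, MET17 and URA3, which all groups carried. Cultures grew for 20 h at 30 °C in 5% YPD without protein (condition 1, the control) or with PeAfpA at 1 µg/mL (condition 2), 2 µg/mL (condition 3) or 4 µg/mL (condition 4), with 3 libraries (A, B and C) per condition. One strain was used, and per the study's methods the replicates of a condition were grown in separate flasks, so p-values measure the spread between flasks of that strain.

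Yeast cells sense phosphate through the PHO pathway. When phosphate is plentiful, the cyclin-dependent kinase Pho80-Pho85 phosphorylates the transcription factor Pho4 and keeps it out of the nucleus. When phosphate is scarce, the inhibitor Pho81 holds the kinase back and Pho4 turns on genes that take phosphate up, release it from organic compounds outside the cell and in the vacuole, and build polyphosphate, the chain of phosphates that the vacuole stores. The core sequence read by Pho4 is CACGTG, with CACGTT as a weaker form.

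The Pho4 core sequences before the 8 genes are shown because they are the feature through which these genes are known to be regulated together. In the 250 bases before the start codon, CACGTG or CACGTT (either strand, so AACGTG counts as CACGTT) was found for 3 of the 8 genes (SPL2, VTC1 and VTC4), against 10.1% of 6021 genes of the reference. With a window of 500 bases, chosen after seeing the data, CACGTG preceded 7 of the 8 genes, against 6.21% of all genes, and CACGTT preceded 5, PHO8 among them, against 16%. Of the 31 other phosphate genes described further below, 13 had CACGTG and 13 had CACGTT in 500 bases. In 250 bases, 11 of the 31 had either core. The lines give 30 bases of the coding strand around the CACGTG nearest to each start codon, or for PHO8 the CACGTT, with that motif in capitals, read from the RefSeq R64 genome. A match is a description of the letters and not a measurement of Pho4 binding.
PHO84: tgttatttccagCACGTGgggcggaaatta
PHO89: atgacaatgcagCACGTGggagacaaatag
PHO5: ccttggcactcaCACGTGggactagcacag
PHO8: ctcatatggagaAACGTGagattgaagtac
SPL2: agtcactgcagcCACGTGcctagatctatt
VTC1: aatagatattagCACGTGtctcggagagaa
VTC3: tgcagtcgcaagCACGTGcatgcgattttg
VTC4: cacgtggctgcaCACGTGaatgaaaaagaa
The printed windows lie at chrXIII:26197-26226 (PHO84, minus strand), chrII:798828-798857 (PHO89, minus), chrII:431187-431216 (PHO5, minus), chrIV:1420613-1420642 (PHO8, minus), chrVIII:375114-375143 (SPL2, minus), chrV:302637-302666 (VTC1, plus), chrXVI:517312-517341 (VTC3, minus) and chrX:413495-413524 (VTC4, minus). SPL2 had the most CACGTG matches in its 500 bases, 4, and PHO84, VTC3 and VTC4 had 2 each. The capitals begin 31 bases before the start codon in SPL2, 113 bases before it in VTC4 and 414 bases before it in PHO84. The lower-case cacgtg at the start of the VTC4 line is its other match. Each of the 8 genes is annotated as a single coding exon without introns.

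Libraries held 7153797 to 10270183 counts, and the 8 genes had between 334 and 35084 counts in a library, so counting noise was small beside the spread between libraries. URA3, LEU2 and MET17 had 0 counts in 12 of 12 libraries, which allows up to 3 counts in each, while HIS3 kept 381 to 649 counts. Of the mating type markers, STE2, expected in MATa cells, had 855 to 4740 counts. STE3, not expected in such cells, was nevertheless found in every library, with 94 to 299 counts. Both had their highest counts in condition 4, and the cause was not tested. The labels name the material mycelia, although this strain grows as single cells. Libraries 2A, 3C and 4C stood apart from the other libraries of their own condition. Differences were tested with edgeR on 5909 genes with an average of 1 TPM or more (TPM, counts per length of gene scaled to the same total in each library), with Benjamini-Hochberg adjustment over all of them, and genes with an adjusted p below 0.05 were taken as differentially expressed (DEGs). Of the genes tested, 42.2% were DEGs in condition 4 relative to condition 1, with 19.3% higher and 23% lower, and 34.1% were DEGs in condition 4 relative to condition 3. Neither condition 3 nor condition 2 had a DEG relative to condition 1 (0%), with 573 and 536 genes at an unadjusted p below 0.05. DESeq2 called 34 and 3 genes there, and limma-voom 1281 and 2. A list of 7 genes that yeast switches off while glucose is present (ADH2, ICL1, MLS1, FBP1, PCK1, ACS1 and JEN1) fell together in condition 4, 7 of 7, with a median log2 fold change of -5.47, whereas their median was -0.48 in condition 3 with 0 of 7 DEGs by edgeR and 0 at an unadjusted p below 0.05. Their part in the results on phosphate genes was not tested.

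Per length of gene, the 8 genes spanned a wide range of levels in the control. PHO84, the high-affinity proton-coupled phosphate transporter, was the most abundant at 1318 TPM on average, which placed it at rank 115 of 5917 genes. VTC1 followed with 792 TPM and PHO89 with 629 TPM, and these overlapped between libraries. SPL2 (209.6 TPM), VTC4 (183 TPM) and PHO8 (171 TPM) came next, and their values overlapped between libraries. VTC3 and PHO5 were lowest, at 95.7 and 93.7 TPM, again with overlap. In condition 4 the order was different, since PHO89 stood at 123 TPM (rank 1331) and PHO5 at 195 TPM (rank 845).

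**Figure D1:**
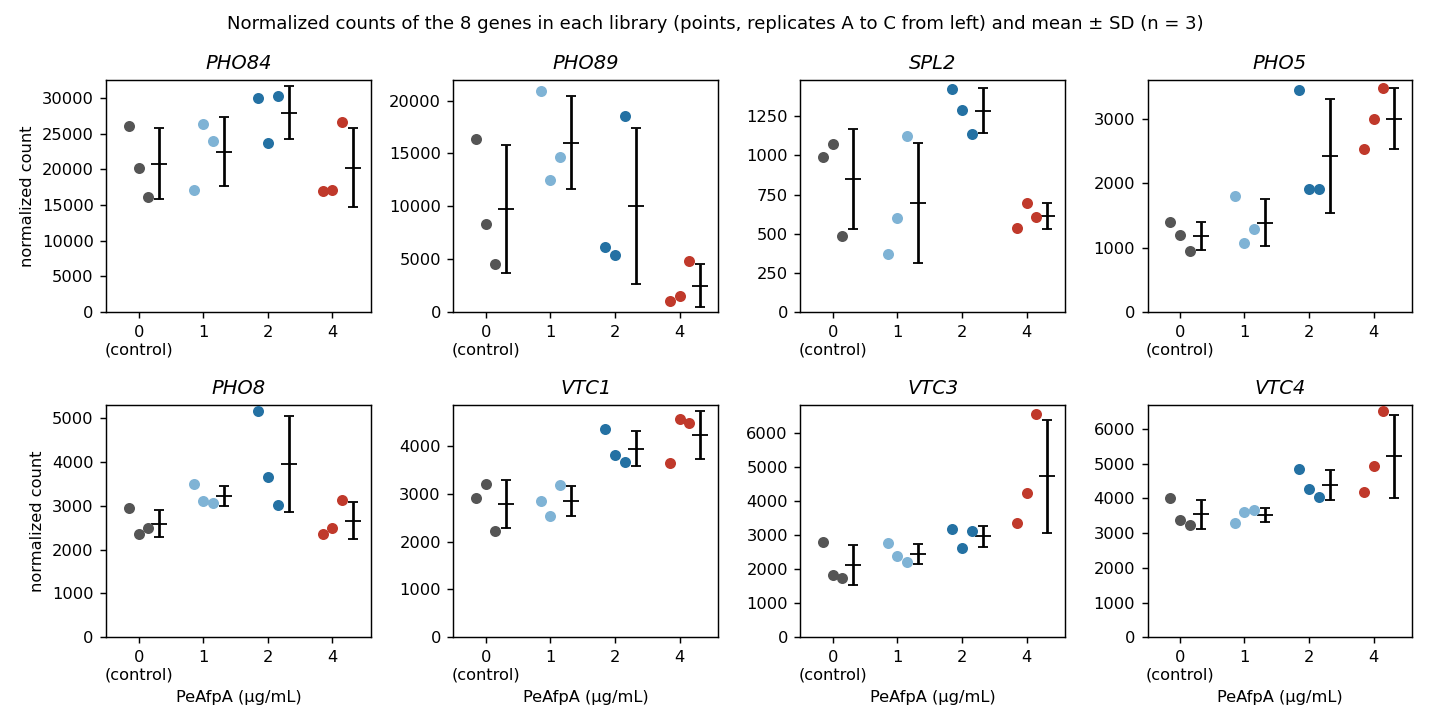
Normalised counts of the 8 genes in every library, by PeAfpA dose in µg/mL. Points are libraries and black bars the means ± SD (n = 3): PHO5 lies between 2529 and 3476 in the 3 libraries at 4 µg/mL and between 949 and 1393 in the controls, whereas PHO89 lies between 1063 and 4836 at 4 µg/mL and between 4499 and 16383 in the controls.

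PHO5, which encodes the main secreted acid phosphatase and is the classical reporter of the pathway, rose at the highest dose. Values are given as normalised counts, that is, counts scaled to a common library size with the TMM method. PHO5 had 1393, 1191 and 949 normalised counts in condition 1, 1794, 1078 and 1284 in condition 2, 3436, 1912 and 1903 in condition 3, and 2529, 2986 and 3476 in condition 4. All libraries of conditions 3 and 4 lay above all controls, and those of condition 2 overlapped them. PHO5 averaged 2997 ± 473 in condition 4 and 1178 ± 222 in condition 1 (SD, n = 3 each), a log2 fold change of 1.35 (SE 0.27, 95% interval 0.77 to 1.92, edgeR adjusted p = 0.0030), or 2.54-fold. It was a DEG in each of the 12 fits that left out a library, with log2 fold changes of 1.21 to 1.49. Fits without a library of condition 2 or 3 kept both groups compared intact and gave 1.34 to 1.36 for PHO5. Such fits bear just as little on the other calls for condition 4 relative to condition 1. RNA of whole cultures was measured, so less or more RNA in every cell and a different share of cells with that RNA cannot be told apart.

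PHO3, the neighbour of PHO5 on chromosome II, encodes a closely related acid phosphatase that phosphate does not repress, and it went the other way. PHO3 lies 446 bases from PHO5 on the same strand, at chrII:427698-429101, against chrII:429548-430951 for PHO5. PHO3 averaged 933 ± 505 normalised counts in condition 4 and 2238 ± 555 in condition 1 (SD, n = 3 each), a log2 fold change of -1.26 (SE 0.43, edgeR adjusted p = 0.032). The call was lost in 4 of the 12 fits that left out a library (1A, 1B, 4A or 4B), with an adjusted p of at most 0.11. Within a library, where both genes share the depth and the scaling, the ratio of PHO5 to PHO3 per length was 4.01, 4.57 and 2.29 in condition 4, against 0.485, 0.591 and 0.519 in condition 1. In conditions 1, 2, 3 and 4 it averaged 0.532, 1.03, 1.31 and 3.63, and library 2A (2.24) stood apart in condition 2. The ratio is a description, since the pair was chosen after its values were seen.

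PHO5 and PHO3 are 86.5% identical over 1404 bases, with 189 differing positions, so it matters whether their reads can be separated. The window of 60 bases with the most differences, 19 in capitals, is shown from bases 634 to 693 of both reading frames.
PHO5: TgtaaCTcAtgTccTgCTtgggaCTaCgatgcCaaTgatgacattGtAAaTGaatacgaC
PHO3: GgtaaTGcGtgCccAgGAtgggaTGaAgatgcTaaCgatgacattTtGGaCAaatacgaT
These windows lie at chrII:430259-430318 and chrII:428409-428468 of R64, on the minus strand. Of the 1330 windows of 75 bases in PHO5, 66 (4.96%) recurred exactly elsewhere in the genome, and 3.16% did so in PHO3. The other 7 genes had 0 such windows. The acid phosphatase copies PHO11 and PHO12 had 82.4% and 81.3%, so counting could split their reads and their separate values are uncertain.

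PHO8, the vacuolar alkaline phosphatase, did not differ detectably between condition 4 and the control. It had 2943, 2349 and 2484 normalised counts in condition 1, 3493, 3107 and 3068 in condition 2, 5154, 3667 and 3019 in condition 3, and 2355, 2496 and 3141 in condition 4. The libraries of conditions 2 and 3 all lay above the controls, while those of condition 4 overlapped them. For condition 4 relative to condition 1 the log2 fold change was 0.04 (SE 0.21, 95% interval -0.41 to 0.49, edgeR adjusted p = 0.89). Per length, PHO5 stood at 1.30, 1.45 and 1.34 times PHO8 in condition 4, against 0.573, 0.614 and 0.463 times in condition 1.

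**Figure D2:**
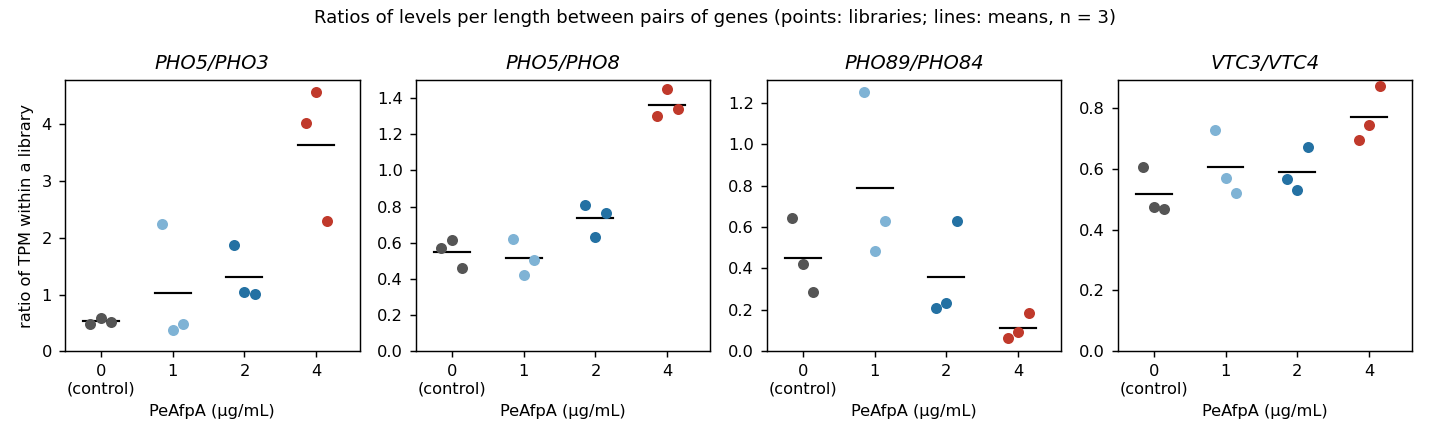
Ratio of TPM between pairs of genes within each library, by PeAfpA dose in µg/mL. Points are libraries and lines the means of 3, with PHO5/PHO3 averaging 3.63 at 4 µg/mL and 0.532 in the control, and PHO89/PHO84 averaging 0.114 and 0.449.

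The 3 genes of the vacuolar transporter chaperone (VTC) complex among the 8 all rose in condition 4. Vtc4 is the catalytic subunit, which joins phosphates into polyphosphate and passes the chain into the vacuole, and Vtc1 and Vtc3 are its partners in the membrane.

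VTC3 rose the most of the 3. It had 2814, 1847 and 1751 normalised counts in condition 1, 2767, 2379 and 2217 in condition 2, 3181, 2626 and 3129 in condition 3, and 3367, 4254 and 6586 in condition 4. All libraries of condition 4 were above those of the other 3 conditions, with 4C the highest. VTC3 averaged 4735 ± 1663 in condition 4 and 2138 ± 588 in condition 1 (SD, n = 3 each), a log2 fold change of 1.15 (SE 0.26, 95% interval 0.59 to 1.70, edgeR adjusted p = 0.0051), or 2.21-fold. It was a DEG in each of the 12 fits without a library, at 0.85 without 4C.

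VTC1 had 2903, 3199.8 and 2226 normalised counts in condition 1, 2844, 2531 and 3172 in condition 2, 4354, 3801 and 3655 in condition 3, and 3648, 4556 and 4469 in condition 4. Conditions 3 and 4 lay at like levels above all controls. VTC1 averaged 4224 ± 501 in condition 4 and 2776 ± 499 in condition 1 (SD, n = 3 each), a log2 fold change of 0.61 (SE 0.18, 95% interval 0.21 to 1.00, edgeR adjusted p = 0.020), or 1.52-fold. The call was lost without library 1C (0.47, edgeR adjusted p = 0.091) and without 4B (0.55, edgeR adjusted p = 0.064).

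VTC4 had 4018, 3374 and 3224 normalised counts in condition 1, 3288, 3599 and 3673 in condition 2, 4860.1, 4269.6 and 4032 in condition 3, and 4194, 4935 and 6522 in condition 4. Each library of condition 4 was above each control, with 4A close to control 1A. VTC4 averaged 5217 ± 1189 in condition 4 and 3538 ± 422 in condition 1 (SD, n = 3 each), a log2 fold change of 0.56 (SE 0.19, 95% interval 0.14 to 0.98, edgeR adjusted p = 0.033), or 1.47-fold. VTC4 was called in 13 of the 20 alternatives, the fewest of the 5 called genes, and the call was lost without library 1B (edgeR adjusted p = 0.092), 1C (0.11), 4B (0.058) or 4C (0.11). Scaling by library size alone shifted the middle of all log2 fold changes to -0.24, against -0.04 with TMM, and on that scale VTC1 (0.41, edgeR adjusted p = 0.089) and VTC4 (0.34, edgeR adjusted p = 0.15) remained positive but were not DEGs. The ratio of VTC3 to VTC4 per length was 0.693, 0.744 and 0.872 in condition 4, against 0.605, 0.473 and 0.469 in condition 1, without overlap.

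PHO89 and PHO84, the transporter genes, behaved differently from each other. PHO89 encodes the sodium-coupled phosphate transporter that works best at alkaline pH, and it was the member with the largest change and the largest spread. PHO89 had 16383, 8286 and 4499 normalised counts in condition 1, 20945, 12461 and 14678 in condition 2, 6109, 5395 and 18559 in condition 3, and 1063, 1555 and 4836 in condition 4. Condition 4 was the lowest, although library 4C exceeded control 1C. PHO89 averaged 2485 ± 2051 in condition 4 and 9723 ± 6071 in condition 1 (SD, n = 3 each), a log2 fold change of -1.97 (SE 0.64, 95% interval -3.36 to -0.57, edgeR adjusted p = 0.027), or 3.92-fold lower. A two-sided exact permutation test on the 6 libraries gave p = 0.2, where 0.1 is the smallest it allows. The edgeR call was lost without library 1A (-1.36, edgeR adjusted p = 0.12), 1B (-2.07, edgeR adjusted p = 0.050), 4A (-1.61, edgeR adjusted p = 0.077) or 4B (-1.72, edgeR adjusted p = 0.090).

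PHO84 showed no detectable difference at 4 µg/mL. PHO84 had 26107, 20176 and 16107 normalised counts in condition 1, 17119, 26380 and 23926 in condition 2, 30008, 23630.5 and 30224 in condition 3, and 17008, 17074 and 26600.4 in condition 4. The conditions overlapped, and condition 3 was the highest on average (27954 ± 3746). For condition 4 relative to condition 1 the log2 fold change was -0.04 (SE 0.29, 95% interval -0.67 to 0.59, edgeR adjusted p = 0.92). An antisense RNA (YNCM0001W, chrXIII:23564-26578, plus strand) spans PHO84 (chrXIII:24037-25800, minus strand), and the sources used here do not state counting by strand, so reads of the gene and of its antisense RNA cannot be told apart. The ratio of PHO89 to PHO84 per length was 0.0639, 0.0931 and 0.186 in condition 4, against 0.642, 0.420 and 0.286 in condition 1, without overlap. Antisense reads may be part of its PHO84 term. This ratio and those of PHO5 to PHO8 and VTC3 to VTC4 were not planned and are given as descriptions.

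SPL2 encodes a small protein that holds back low-affinity phosphate uptake when the pathway is on. SPL2 had 991, 1072 and 483 normalised counts in condition 1, 371, 599 and 1123 in condition 2, 1426, 1290.1 and 1140 in condition 3, and 535, 698 and 608 in condition 4. Condition 3 was high in all 3 libraries, and condition 4 overlapped the control. The log2 fold change in condition 4 relative to condition 1 was -0.47 (SE 0.35, 95% interval -1.22 to 0.29, edgeR adjusted p = 0.29).

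Counted together for condition 4 relative to condition 1, 4 of the 8 genes rose (PHO5, VTC1, VTC3 and VTC4), against 19.3% of all genes tested, and 1 fell (PHO89), against 23%. The same 4 had all libraries of condition 4 above all controls in normalised counts, against 27.4% of all genes. In TPM, without the TMM factors, a comparison added after seeing the data, this held for 3 (not VTC4), against 15.7% of 5662 genes with a known length, and PHO89 lay below all controls, against 43.2%. The median log2 fold change was 0.30 over the 8 genes and -0.04 over all genes tested. The 8 genes did not move together, since the 3 others had values of 0.04 (PHO8), -0.04 (PHO84) and -0.47 (SPL2). Without library 4B 2 of the 8 were DEGs (PHO5 and VTC3), and without 1B or 1C the count was 3. The DEGs over all genes fell as well, from 2496 to 2002 without 4B, 1808 without 1B and 1656 without 1C.

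**Figure D3:**
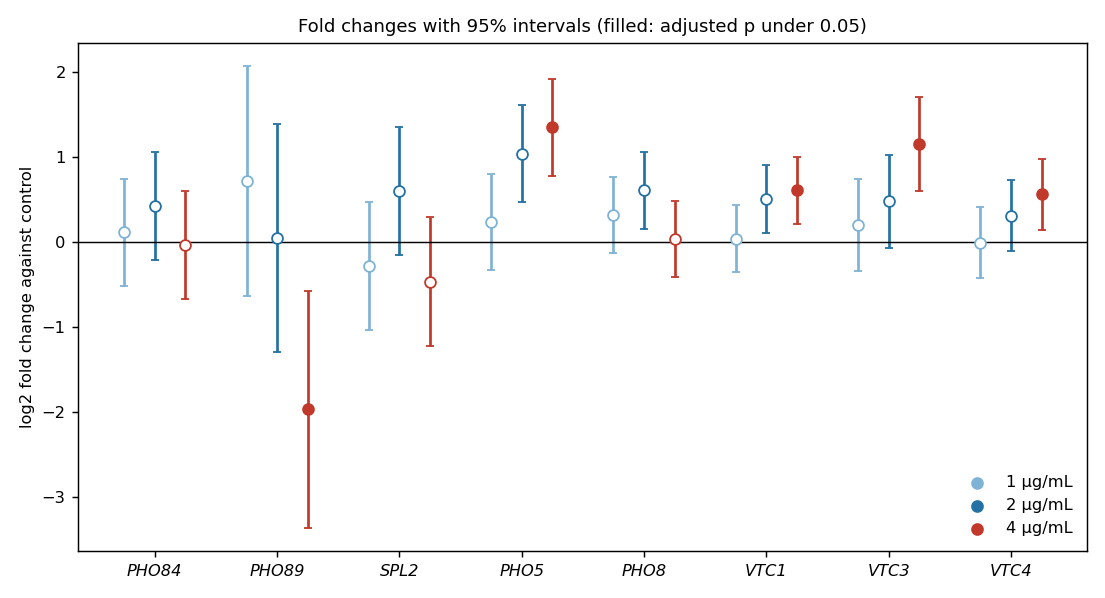
Log2 fold changes of the 8 genes relative to condition 1, with 95% intervals from edgeR (n = 3 libraries per condition), for conditions 2, 3 and 4. Filled points are DEGs: PHO5 (1.35), VTC3 (1.15), VTC1 (0.61), VTC4 (0.56) and PHO89 (-1.97) in condition 4, and none of the 8 in conditions 2 and 3.

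In condition 3 all 8 genes had positive log2 fold changes relative to condition 1, beside 2836 of the 5909 genes tested. The median was 0.49, against -0.01 over all genes tested. PHO89 had only 0.04 (SE 0.62, edgeR adjusted p = 0.98), and its sign turned in some alternatives. No member was a DEG by edgeR (0 of 8, against 0% of all genes), and 3 had an unadjusted p below 0.05 (PHO5, PHO8 and VTC1), against 9.7% of all genes. The libraries of condition 3 lay above all controls for 5 of the 8 (PHO5, PHO8, SPL2, VTC1 and VTC4) in normalised counts, against 8.66% of all genes, and for 3 of the 8 (PHO5, SPL2 and VTC1) in TPM, against 4.54%. PHO5 had the largest value, 1.04 (SE 0.26, edgeR adjusted p = 0.34), followed by PHO8 at 0.61 (edgeR adjusted p = 0.43) and SPL2 at 0.60 (edgeR adjusted p = 0.57). DESeq2 called PHO5 (adjusted p = 0.036), where it called 34 of all genes. With weights per library, limma-voom called 6 of the 8, all but PHO84 and PHO89 (PHO5 adjusted p = 0.0033). It called far more genes over the whole table, 1281 of the 5909. Over the 20 alternatives the adjusted p of PHO5 spanned 0.0033 to 0.997.

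In condition 2 no member was a DEG by edgeR (0 of 8, against 0%), none had an unadjusted p below 0.05 (0 of 8, against 9.07%), and DESeq2 (with no adjusted p for 1) and limma-voom called 0 of 8. Of the values 6 were positive, beside 2802 of the 5909 genes tested, and the median was 0.16, against -0.02 over all genes. PHO8 alone had all 3 libraries above the controls in normalised counts (1 of 8, against 7.53% of all genes) but not in TPM (0 of 8, against 2.35%), with a log2 fold change of 0.31 (edgeR adjusted p = 0.60). PHO89 had the largest value, 0.72 (SE 0.62, edgeR adjusted p = 0.69), within its spread.

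Conditions 4 and 3 were compared to see how the genes differed between the highest doses. Relative to condition 3, SPL2 fell in condition 4 by 1.07 on the log2 scale (SE 0.35, edgeR adjusted p = 0.035) and PHO89 fell by 2.01 (SE 0.64, edgeR adjusted p = 0.032), with no overlap between libraries in either, so 2 of 8 were lower, against 18.7% of all genes tested for the call and 27.9% for libraries below all those of condition 3, and 0 were higher, against 15.4%. PHO8 (-0.57, edgeR adjusted p = 0.050) and VTC3 (0.67, edgeR adjusted p = 0.057) lay just outside the threshold. For VTC3 all libraries of condition 4 were above those of condition 3 (1 of 8, against 24.5% of all genes). In TPM, 4 of 8 lay below all libraries of condition 3, PHO84 and PHO8 besides SPL2 and PHO89, against 36.2% of all genes. The call on SPL2 was lost without library 3A (edgeR adjusted p = 0.091), 3B (0.080), 4A (0.082), 4B (0.058) or 4C (0.097), and that on PHO89 without 3C (-1.23, edgeR adjusted p = 0.14), 4A (0.079) or 4B (0.097). PHO8 became a DEG without 2A (edgeR adjusted p = 0.039) or 3C (0.023), and VTC3 without 1A (0.047), 2A (0.046) or 4A (0.021). Per length, PHO5 averaged 195 TPM in condition 4 and 183 TPM in condition 3, while PHO89 averaged 123 and 608 TPM.

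A further 31 genes of phosphate sensing, transport, phosphatases and polyphosphate were set beside the 8. In condition 4 relative to condition 1, 8 of the 31 rose and 6 fell, 14 in all, against 42.2% of all genes tested, with a median log2 fold change of 0.12. Of the 14 calls, 6 held in all 12 fits that left out a library (PHO81, VIP1, PHO88, GDE1, PPX1 and PHM7). The count over the list was 8 without library 1B and 9 without 4C. Over all genes the DEGs fell from 2496 to 1808 and 1491 in the same fits.

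Among the regulators, PHO81, the inhibitor of the kinase, rose by 0.73 on the log2 scale (SE 0.19, edgeR adjusted p = 0.011), whereas the transcription factor PHO4 (-0.87, edgeR adjusted p = 0.011) and the kinase PHO85 (-0.65, edgeR adjusted p = 0.029) fell. The call on PHO4 was lost without 4C (edgeR adjusted p = 0.053), and that on PHO85 without 1A, 1B or 4C (edgeR adjusted p of at most 0.13). VIP1, one of the enzymes that make inositol pyrophosphates, the small molecules that report phosphate status, rose by 0.62 (edgeR adjusted p = 0.0091).

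The polyphosphate genes outside the 8 were mixed. VTC2, another membrane subunit of the VTC complex, rose by 0.61 (SE 0.17, edgeR adjusted p = 0.015), a call lost without 1B, 1C or 4B (edgeR adjusted p of at most 0.060). PPX1, a cytosolic exopolyphosphatase that degrades polyphosphate, rose by 0.62 (edgeR adjusted p = 0.0041), and the polyphosphatase PPN1 had -0.37 (edgeR adjusted p = 0.12). VTC5 had -0.32 (edgeR adjusted p = 0.13).

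Among phosphatases and related hydrolases, PHO12 (-0.89, edgeR adjusted p = 0.025) and PHO3 fell, and PHO11 had -1.17 (edgeR adjusted p = 0.058), while GDE1, which splits glycerophosphocholine into choline and glycerol-3-phosphate, rose by 0.91 (edgeR adjusted p = 0.0045). The call on PHO12 was lost without 1B or 4C (edgeR adjusted p of at most 0.10). Most windows of 75 bases in PHO11 and PHO12 recur elsewhere in the genome, so their separate values are uncertain. PHO11 had only 7 counts in library 4C. Of the transporters 1 of 5 was called, higher, against 19.3% of all genes tested: SYG1 rose by 0.76 (edgeR adjusted p = 0.014), lost without 1B (0.058). PHO86, which helps Pho84 leave the endoplasmic reticulum, rose by 0.57 (edgeR adjusted p = 0.019), a call lost without 1B, 1C or 4C (edgeR adjusted p of at most 0.071). PHO88 (SND3 in RefSeq), linked to the delivery of proteins into the endoplasmic reticulum, rose by 1.19 (edgeR adjusted p = 0.0047).

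The largest change in the list was that of PHM7, a membrane protein gene named for its response to phosphate. PHM7 stood at 21.6, 15.4 and 7.11 TPM in condition 4, against 104, 104 and 123 TPM in condition 1, without overlap. Its log2 fold change was -2.68 (SE 0.35, edgeR adjusted p = 0.00034). PHM6, another gene of the same naming, fell by 0.88 (edgeR adjusted p = 0.016), a call lost without 1A or 4C (edgeR adjusted p of at most 0.071).

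**Figure D4:**
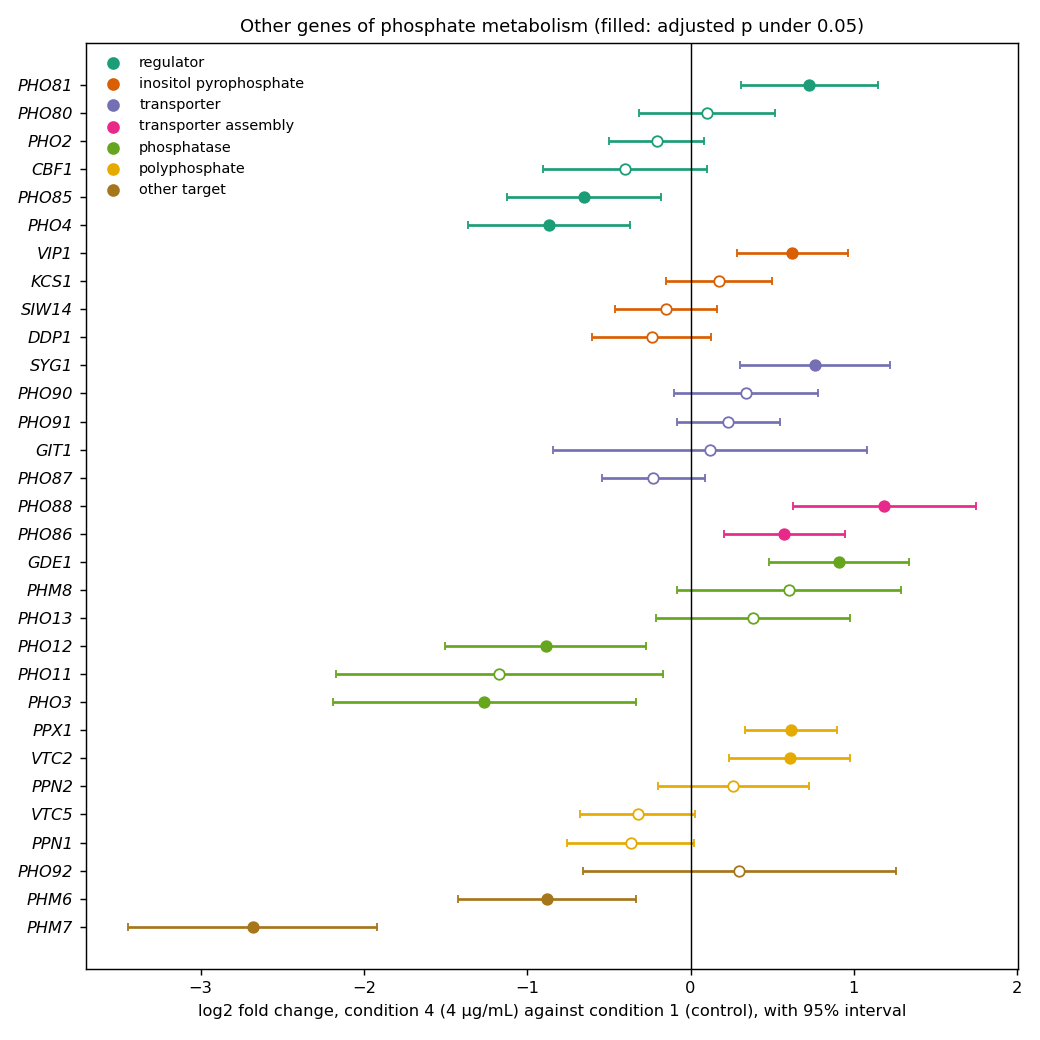
Log2 fold changes of 31 other phosphate genes in condition 4 relative to condition 1, with 95% intervals from edgeR (n = 3 libraries per condition), grouped by role. Filled points are the 14 DEGs, from PHM7 at -2.68 to PHO88 at 1.19.

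Relative to condition 1, 0 of the 31 were DEGs by edgeR in conditions 3 and 2, with 6 and 5 at an unadjusted p below 0.05, against 9.7% and 9.07% of all genes tested. DESeq2 called 0 of the 31 in both (it gave no adjusted p for 25 of them in condition 2), and limma-voom called 8 and 0 of them, beside the 1281 and 2 genes it called of the 5909. In condition 4 relative to condition 3, 4 of the 31 were higher, against 15.4% of all genes tested, and 7 lower, against 18.7%, with PHM7 (-2.22, edgeR adjusted p = 0.0014) again the lowest.

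The genes whose course over the 12 libraries was most like that of PHO84 and of VTC4 were sought by the root mean square difference of centred log2 normalised counts, where 0 is an identical course. CDC13 (0.172), CLN3 (0.189), CTF19 (0.194), KIC1 (0.195) and GUP2 (0.211) were nearest to PHO84, against a median of 0.455 over all genes, and among the members PHO8 was nearest (0.281). For VTC4 the nearest were CYB5 (0.129), LIA1 (0.133), CLB4 (0.134), ENP2 (0.135) and ALG3 (0.136), against a median of 0.420. Its partner VTC1 lay at 0.172 from VTC4 and VTC3 at 0.267, both below that median. So did PHO84 (0.339) and PHO8 (0.356), so this was not particular to the VTC genes. PHO5 (0.412) was close to the median, SPL2 (0.619) above it and PHO89 (1.46) far above it. The points share libraries and depth, and the distances are given as a description.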

How the data were processed

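RNA-seq counts per gene were deposited by the authors, who per the labels and methods trimmed reads (Trimmomatic 0.39), mapped them (Bowtie2 2.3.2) to the S288C genome and counted them (HTSeq 0.9.0). Groups follow the sample labels. The 8 genes and all lists were chosen with earlier results of these data known. The text names all 8, those other phosphate genes that passed the threshold in condition 4 relative to condition 1 or adjoin or nearly copy a member, and the 5 genes most like PHO84 and the 5 most like VTC4. VTC5 and PPN1 were named after their values were seen.

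Counts were tested with the quasi-likelihood F test of edgeR 4.0.16 in R 4.3.3, TMM scaling, 1 fit over 12 libraries, on genes with a mean of 1 TPM or more (1 CPM where no length was known), 5909 genes, with two-sided p-values adjusted over all of them. Intervals use the fit's degrees of freedom. Lengths, positions and sequences came from RefSeq R64. Of 6600 features, 683 had no match there (0.172% to 0.323% of counts), so overlap with them was not checked. Alternatives were DESeq2 1.42.0, limma 3.58.1 voom with quality weights, other scalings, filters and sample sets, a replicate block and leaving out each library. Scripts were tested on simulated counts.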

Additional observations from a re-analysis of the deposited data

How the results depend on the processing

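PHO5 and VTC3 kept their direction and call in condition 4 relative to condition 1 under all 20 alternatives. These include the fits without a library of condition 2 or 3, which left both groups compared intact. With library size alone 3 of the 8 genes were called there, not 5, and the DEGs divided into 756 higher and 1570 lower, against 1139 and 1357 with TMM. VTC4 was also not called with edgeR on only the 2 groups (adjusted p = 0.071) or with a replicate block (adjusted p = 0.063). In condition 3 relative to condition 1, DEGs numbered 34 with DESeq2, 1281 with limma-voom and 23 with edgeR on only the 2 groups, where edgeR over 12 libraries called 0. Of the members 1 was called by DESeq2 and 6 by limma-voom, and of the 31 other genes 8 by limma-voom. In condition 2 the DEGs were 3 with DESeq2, which gave no adjusted p for 4926 genes, and 2 with limma-voom. In condition 4 relative to condition 3, limma-voom called 3462 DEGs, 5 members and 17 other genes, and DESeq2 4 members. In TPM, all libraries of condition 4 lay below the controls for 1 member and below condition 3 for 4, not 0 and 2, and all libraries lay above the controls for 3 members in condition 3 and 0 in condition 2, not 5 and 1. The motif count was 3 of 8 in 250 bases and 8 of 8 in 500, against 10.1% and 20.9% of all genes. Among the 31 other phosphate genes it was 11 and 18.

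Same-numbered libraries deviated together (correlation above 0.1) in 6 of 18 pairs, and differently numbered ones in 13 of 36. By this measure the replicate numbers showed no pairing. The labels do not say whether any libraries shared a batch. A replicate block left 2216 DEGs and 4 members in condition 4 relative to condition 1, and 1 member relative to condition 3 (SPL2 lost, adjusted p = 0.053).

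Without 1 library, condition 4 relative to condition 1 gave 1491 to 2783 DEGs, 2 to 5 members and 8 to 15 other genes. Relative to condition 3 it gave 906 to 2486 DEGs, 0 to 4 members and 6 to 13 other genes. Condition 3 relative to condition 1 gave 0 to 131 DEGs, 0 members and 0 to 1 other genes, and condition 2 gave 0 throughout.

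All signs that turned were of values that were not called. PHO8 in condition 4 had -0.055 with limma-voom and -0.17 with library size alone. PHO89 in condition 3 had -0.25 with limma-voom, -0.025 with library size alone and -0.21 with the replicate block. In condition 2, library size alone gave -0.027 for PHO84 and -0.12 for VTC1, and VTC4 had 0.0131 with DESeq2, 0.048 with limma-voom and 0.0131 with RLE factors. Relative to condition 3, VTC1 in condition 4 had -0.035 with library size alone. Without 1 library, PHO84 spanned -0.27 to 0.16 and PHO8 -0.080 to 0.14 in condition 4, PHO89 -0.74 to 0.65 in condition 3, and in condition 2 PHO84 -0.035 to 0.31, SPL2 -0.80 to 0.029, VTC1 -0.092 to 0.15 and VTC4 -0.064 to 0.094. The cause was not tested.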

Other observations

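YML122C, an open reading frame of unknown function next to PHO84, was looked at after its values were seen. It was chosen because the antisense RNA that spans PHO84 also covers all of it (chrXIII:26038-26418, minus strand). It had 54, 54 and 62 counts in condition 4, against 8, 20 and 16 in condition 1, without overlap between libraries. Its log2 fold change was 2.08 (SE 0.39, edgeR adjusted p = 0.0024) in condition 4, 0.60 (edgeR adjusted p = 0.63) in condition 3 and 0.03 (edgeR adjusted p = 0.98) in condition 2. Which strand these reads came from was not tested. TUB3, the alpha-tubulin gene on the other side of PHO84, had a log2 fold change of 1.13 (SE 0.22, edgeR adjusted p = 0.0027) in condition 4 relative to condition 1, with 1692, 2226 and 2086 counts in condition 4 and 821, 1050 and 1166 in condition 1. PHO84, between them, had -0.04. The antisense RNA (chrXIII:23564-26578) also overlaps part of TUB3, which lies 353 bases from PHO84 (chrXIII:24037-25800).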
